A study of Drosophila melanogaster with 3 samples.

Results

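The genes described here encode the subunits of the proteasome in Drosophila melanogaster. They were taken as every protein-coding gene whose symbol starts with Prosalpha, Prosbeta, Rpn or Rpt, which gave 48 of 13945 protein-coding genes. By symbol they fall into 32 canonical subunit genes and 16 testis-type paralogs, whose symbols end in T or R with or without a copy number. The canonical genes comprise 14 genes of the core particle, 8 of the lid and 10 of the base. No symbol found by the rule fell outside these classes. The names alone set the classes, since the peak files hold no expression values. The small lid subunit Sem1 does not carry an Rpn symbol and is therefore not among the 48.

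The proteasome is the large protease that breaks down proteins tagged with ubiquitin. Its core particle is a barrel of outer alpha rings and inner beta rings, and the beta1, beta2 and beta5 subunits hold the active sites. The regulatory particle caps the barrel: a base with a ring of Rpt ATPases unfolds the substrate and feeds it in, and a lid removes the ubiquitin chain. Flies also carry extra copies of several subunit genes, and several of these copies are known to be active mainly in the male germ line.

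The binding data came from chromatin immunoprecipitation followed by sequencing (ChIP-seq) on a fly line that stably expresses the protein of CG4820 fused at its C-terminal end to green fluorescent protein (GFP). An anti-GFP antibody was used on whole embryos of mixed sex aged 0 to 16 h, in 3 biological replicates of 1 group. Chromatin was sonicated to fragments of 200 to 800 bp. All replicates come from 1 line with a tagged protein, and whole embryos mix all cell types, so a peak cannot be assigned to a tissue and no group with an altered CG4820 was compared.

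A peak is a region with more fragments than background, its summit is the position of highest signal, and its signal is the authors' enrichment value. Signal was compared only within a list, and lists were compared by rank, where rank 1 is the highest signal. The optimal list, the authors' final reproducible list on the dm6 build, held 4876 peaks. The pooled candidate list held 21656 peaks, and the replicate candidate lists held 26597, 27004 and 26145 peaks. Per the deposited file descriptions the candidate lists hold peaks together with background, so a candidate outside the optimal list may be background. The optimal list consisted of exactly the 4876 pooled peaks of highest signal. A replicate peak is called high-signal here if it was among the 4876 highest of its own list. A gene counted as having a promoter summit where a summit lay within 500 bp of any of its transcription start sites (TSSs). Read totals are not given, so depth is unknown, and intervals on shares are 95% Wilson intervals that cover counting error only.

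Canonical proteasome genes had CG4820 summits at their promoters more often than protein-coding genes at large, and the testis-type paralogs had none in the optimal list. An optimal promoter summit was present at 13 of 32 canonical genes, a share of 40.6% (interval 25.5% to 57.7%). It was present at 0 of 16 testis-type paralogs, a count that allows a share of up to 18.75% by the limit of 3 counts in 16 and up to 19.4% by the Wilson interval. Over all protein-coding genes it was present at 2770 of 13945, or 19.9%. The canonical interval lies above this share, but it treats the 32 genes as independent draws and is not a test. The share of all protein-coding genes was also not matched for gene arrangement. A head-to-head neighbour within 1000 bp was present at 59.4% of canonical genes and 36.0% of all protein-coding genes, and optimal promoter summits were more frequent at such genes. The limit for the paralogs is so close to it that 16 genes hardly separate them from protein-coding genes at large.

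The same order was seen in each replicate scored on its own list. High-signal promoter summits were found at 14, 12 and 12 canonical genes in replicates 1, 2 and 3, a mean share of 39.6% ± 3.61 (SD, n = 3). They were found at 0 testis-type paralogs in every replicate, and at 20.1%, 20.0% and 18.5% of all protein-coding genes. Canonical minus testis-type shares were 43.75, 37.5 and 37.5 percentage points, with a mean of 39.6 ± 3.61 (SD, n = 3). Because the paralogs had 0 in every replicate, these differences equal the canonical shares and could not have been negative. Their common sign and their SD therefore add nothing to the canonical shares. The optimal list was made from the same 3 replicates, so the replicates do not repeat it independently. An exact two-sided sign test over 3 values cannot give a p below 0.25.

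The longer candidate lists showed the contrast over more genes. A pooled candidate summit lay at 27 of 32 canonical promoters (84.4%, interval 68.2% to 93.1%), at 2 of 16 testis-type promoters (12.5%, interval 3.50% to 36.0%) and at 44.9% of all protein-coding promoters. In replicates 1, 2 and 3 the canonical genes with a candidate numbered 23, 26 and 26, and the testis-type paralogs numbered 5, 1 and 2. The shares of all protein-coding genes were 46.7%, 48.8% and 44.2%. The canonical and testis-type shares averaged 78.1% ± 5.41 and 16.7% ± 13.01 (SD, n = 3 each), a mean difference of 61.5 ± 18.3 percentage points. Replicate 1 had the smallest difference, 40.6 points, against 75 in replicate 2 and 68.75 in replicate 3. Among genes that had a pooled candidate, the share that reached the optimal list was 48.1% for canonical genes (13 of 27) and 44.2% for all protein-coding genes, so at this step the canonical genes were near the background. For the paralogs it was 0 of 2.

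**Figure D1:**
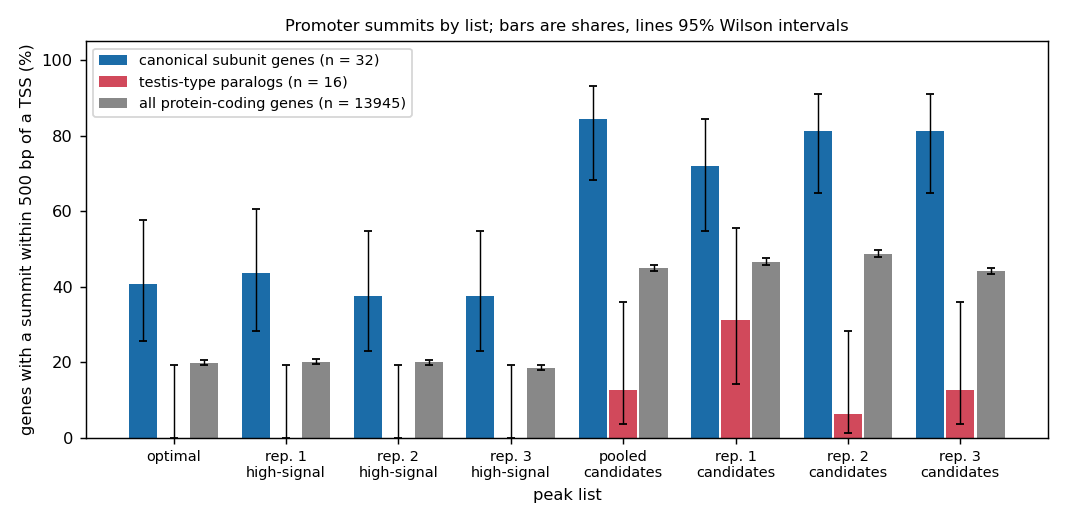
Share of genes with a promoter summit (%, vertical axis) in each peak list, for canonical subunit genes, testis-type paralogs and all protein-coding genes, with lines for 95% Wilson intervals. The canonical share is 40.6% in the optimal list and 84.4% in the pooled list, the testis-type share is 0% and 12.5%, and the share of all protein-coding genes is 19.9% and 44.9%.

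Summits were found in all 3 subcomplexes. The lid had an optimal promoter summit at 4 of 8 genes (50%, interval 21.5% to 78.5%), the base at 4 of 10 (40%, interval 16.8% to 68.7%) and the core particle at 5 of 14 (35.7%, interval 16.3% to 61.2%). Over all protein-coding genes the share was 19.9%, which lies just below the lid interval and inside those of the base and the core particle. With only the 5′-most TSS of each gene the lid had 3 of 8, against 17.8% of all protein-coding genes, and no interval was computed there. The 3 intervals overlap over most of their length, but overlap is not a test, and a difference between subcomplexes was not tested. In the replicates the high-signal counts were 6, 4 and 4 for the lid, 4, 3 and 4 for the base, and 4, 5 and 4 for the core particle, against 20.1%, 20.0% and 18.5% of all protein-coding genes. The median optimal signal was 226.7 for the 4 lid genes, 166.1 for the 4 base genes and 137.9 for the 5 core genes. Signals ran from 175.2 to 359.0 in the lid, 103.4 to 281.1 in the base and 104.4 to 147.2 in the core. The base thus overlapped both others, and a difference in level was not tested. Some of these values came from peaks nearer to a neighbour's start: Rpn5, the highest of the lid, and Prosbeta1, Prosalpha6 and Prosbeta2 in the core. The optimal summit nearest to the Rpn5 start had a signal of 100.8, so the lid range depends on which Rpn5 peak is taken. All 13 had a median of 147.2, against 191.8 for the 2770 protein-coding genes with an optimal promoter summit (lower and upper quartiles 134.8 and 315.6). Of the 13 genes, 5 were above that median and 8 below it, and 7 ranked below the 2438 strongest optimal peaks.

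The lid held the strongest peak of the group. Rpn5, a scaffold subunit of the lid, had optimal rank 735 with a signal of 359.0. Its ranks in replicates 1, 2 and 3 were 320, 891 and 1383. The summit lay 235 bp upstream of the Rpn5 start, within an intron of Hat1, a histone acetyltransferase gene transcribed away from Rpn5, and 126 bp downstream of the Hat1 start. A weaker optimal summit lay 28 bp from the Rpn5 start with a signal of 100.8, which is rank 4876 and so the last peak of the list.

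Rpn3, another structural lid subunit, had optimal rank 1304 with a signal of 260.1, and ranks of 1084, 1542 and 1390 in replicates 1, 2 and 3. Rpn11, the deubiquitinase that cuts the ubiquitin chain off the substrate, had optimal rank 2358 with a signal of 175.2, and ranks of 2090, 2732 and 1949. Rpn6, which in yeast clamps the regulatory particle onto the core, had optimal rank 2042 with a signal of 193.4. Its replicate ranks were 1776, 1814 and 3906, so replicate 3 placed it lower than the others. All 4 lid genes were high-signal in every replicate. The 101 bp around the optimal summits of Rpn5 (chr3R:5789208-5789308) and Rpn11 (chr2L:5059959-5060059), and the 83 bp around that of Rpn3 (chr2L:19051707-19051789), are shown because they are 3 of the 4 lid peaks and include the strongest. They are given in dm6 on the strand of the proteasome gene, plus for Rpn5 and Rpn3 and minus for Rpn11, with the 11 bases centred on the summit in capitals. Exon bases were left out of the Rpn3 window.
Rpn5: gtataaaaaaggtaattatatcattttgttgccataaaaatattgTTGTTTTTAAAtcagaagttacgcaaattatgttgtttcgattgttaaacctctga
Rpn3: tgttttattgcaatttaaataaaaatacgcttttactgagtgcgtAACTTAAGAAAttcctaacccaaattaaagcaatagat
Rpn11: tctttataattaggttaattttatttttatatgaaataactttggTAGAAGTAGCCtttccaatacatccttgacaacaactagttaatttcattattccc
Of these bases, 75.2% were A or T at Rpn5, 73.5% at Rpn3 and 74.3% at Rpn11.

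In the base, Rpt6 was the strongest. This ATPase of the unfolding ring had optimal rank 1144 with a signal of 281.1, and ranks of 1075, 965 and 1545 in replicates 1, 2 and 3. Its summit lay 127 bp upstream, in an intron of CG1801, and no other gene had a TSS in reach. Rpn13, a receptor for ubiquitin chains, had optimal rank 1653 with a signal of 222.6, and ranks of 2260, 1418 and 1709. Rpt6 and Rpn13 were thus high-signal in every replicate and ranked above all core genes in the optimal list.

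The other base genes with an optimal summit were weaker and less even. Rpt5, an ATPase whose tail helps open the gate of the core in yeast, had optimal rank 4740 with a signal of 103.4. Its ranks of 4373, 4804 and 4842 put it just inside the high-signal limit of 4876 in every replicate. Rpn2, the large scaffold that holds Rpn13, had optimal rank 4398 with a signal of 109.6, but ranks of 2640, 5687 and 8210. Rpn2 was therefore high-signal in replicate 1 and below the limit in replicates 2 and 3. The windows at Rpt6 (chrX:21315875-21315975) and Rpn2 (chr3R:29153348-29153448) show the strongest and the least even base peak, both on the plus strand, with the central 11 bases in capitals.
Rpt6: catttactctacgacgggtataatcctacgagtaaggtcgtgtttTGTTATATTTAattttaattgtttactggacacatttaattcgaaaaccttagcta
Rpn2: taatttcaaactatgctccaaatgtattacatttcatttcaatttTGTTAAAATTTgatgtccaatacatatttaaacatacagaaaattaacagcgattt
The A and T share was 68.3% at Rpt6 and 77.2% at Rpn2.

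In the core particle the optimal ranks ran from 2994 to 4674, and 4 of the 5 lay between 2994 and 3432. Among the beta subunits, Prosbeta1, known in yeast and mammals for cutting after acidic residues, had optimal rank 2994 with a signal of 147.2, and ranks of 4022, 2374 and 3823 in replicates 1, 2 and 3. Prosbeta2, which cuts after basic residues, had optimal rank 3432 with a signal of 133.0, and ranks of 4142, 2819 and 3488. Both were high-signal in every replicate. Prosbeta5, the remaining proteolytic subunit, cuts after hydrophobic residues and had no optimal summit. Its pooled candidate ranked 16825, and it had a candidate in replicate 3 alone.

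The alpha subunits form the gate through which substrates enter. Prosalpha6 had optimal rank 3194 with a signal of 140.0, and ranks of 2812, 3165 and 4633 in replicates 1, 2 and 3. A weaker optimal summit, with signal 113.4 and rank 4191, lay 122 bp from its start. Prosalpha3 had optimal rank 3264 with a signal of 137.9, and ranks of 3488, 4063 and 2602. Prosalpha7 had optimal rank 4674 with a signal of 104.4, ranks of 5282 in replicate 1 and 5378 in replicate 3, and no promoter summit in replicate 2. It was the only gene of the 13 that was high-signal in no replicate. The windows at Prosalpha6 (chr2L:10220977-10221077) and Prosbeta2 (chr3L:14999719-14999819) show an alpha and a beta example, both on the plus strand, with the central 11 bases in capitals.
Prosalpha6: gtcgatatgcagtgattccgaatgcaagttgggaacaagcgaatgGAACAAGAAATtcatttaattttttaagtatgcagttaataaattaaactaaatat
Prosbeta2: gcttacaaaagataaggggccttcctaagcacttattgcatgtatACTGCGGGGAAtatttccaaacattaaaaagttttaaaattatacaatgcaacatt
The A and T share was 70.3% at Prosalpha6 and 67.3% at Prosbeta2. Over all 13 peaks the median was 68.3% within 50 bp of the summit, against 67.3% for the 2156 optimal peaks at protein-coding promoters.

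**Figure D2:**
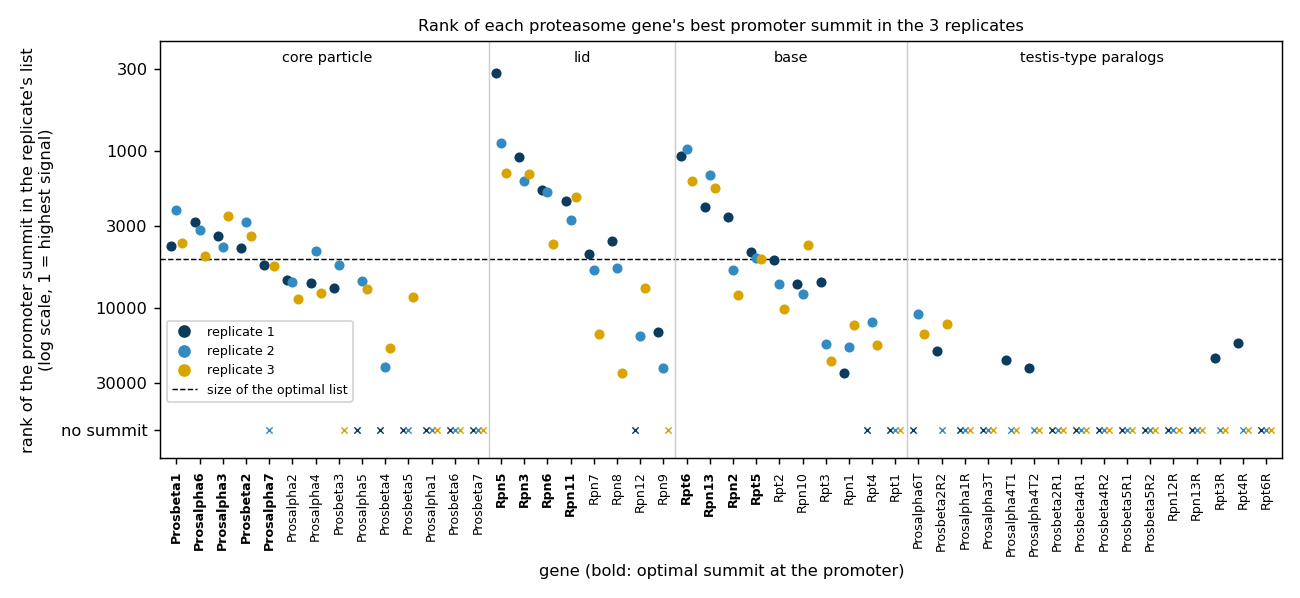
Rank of the best promoter summit of each of the 48 genes in the 3 replicates (log scale, rank 1 is the highest signal), with crosses for no summit and a dashed line at 4876, the size of the optimal list. Genes in bold have an optimal promoter summit; the lid genes Rpn5, Rpn3, Rpn6 and Rpn11 lie above the line in every replicate, and no testis-type paralog reaches it.

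Across replicates, 11 canonical genes were high-signal in all 3, and all 11 had an optimal summit. None was high-signal in exactly 2. Besides Rpn2, the genes high-signal in exactly 1 replicate were Rpn7 and Rpn8 in replicate 1, Prosalpha4 in replicate 2 and Rpn10 in replicate 3, and these 4 were not in the optimal list. The remaining 16 were high-signal in none. At the 13 optimal peaks, 38 overlapping replicate summits were compared with the optimal summit. The median shift was 12 bp and the largest 73 bp, and 32 of the 38 lay within 50 bp.

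A further 14 canonical genes had a promoter summit among the pooled candidates but not in the optimal list. Nearest to the limit was Rpt2, an ATPase, at rank 5980 with a signal of 85.7, and none lay between it and Rpt5 at rank 4740. Rpn7, a lid subunit, had pooled rank 6292, Prosalpha2 had 6352, and the ubiquitin receptor Rpn10 had 6423. Rpn8, the inactive partner of Rpn11, had rank 6760, Prosalpha4 had 6970 and Prosbeta3 had 7223. Rpt3, Prosalpha5, Rpn1, Rpn12, Prosbeta4, Prosbeta5 and Rpt4 followed, at ranks from 8700 to 18071. Rpn8 shows how far replicates could differ below the limit, with ranks of 3750, 5585 and 25837 in replicates 1, 2 and 3.

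Of the remaining 5 canonical genes, the lid gene Rpn9 had a candidate in replicate 1 (rank 14210) and replicate 2 (rank 23924) but not in the pooled list. Prosalpha1, Prosbeta6, Prosbeta7 and the ATPase gene Rpt1 had no promoter summit in any of the 5 lists. The promoter of Prosalpha1 could not be scored in the same way as the others. None of the 32-base words within 500 bp of its start occurs only once in the genome, and the same holds for its paralog Prosalpha1R. The sources used here do not say how the authors treated reads that match several places. With promoters limited to at least 90% unique words, a choice made after seeing the data, 12 of 30 canonical genes (40%), 0 of 15 paralogs and 20.6% of 13354 protein-coding genes had an optimal promoter summit. Rpn3, at 89.8% unique, was the gene with an optimal summit that this left out.

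Few testis-type paralogs had a promoter summit, and none of those they had was high-signal. Prosalpha6T had a pooled candidate at rank 11707 of 21656, and ranks of 10964 in replicate 2 and 14625 in replicate 3. The pooled candidate had its summit 490 bp downstream of the start and so close to the edge of the 500 bp reach. Prosbeta2R2 had the other pooled candidate, at rank 18862 and 136 bp upstream, and ranks of 18849 in replicate 1 and 12548 in replicate 3. Prosalpha4T1, Prosalpha4T2, Rpt3R and Rpt4R had a candidate in replicate 1 alone, at ranks from 16653 to 23936. The other 10 had no promoter summit in any of the 5 lists, and no paralog had a candidate in all 3 replicates.

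Set beside their own canonical copies, the paralogs lacked the optimal promoter summits that some, but not most, of the copies had. The 16 paralogs belong to 12 canonical genes, of which 5 had an optimal promoter summit (Prosalpha3, Prosalpha6, Prosbeta2, Rpn13 and Rpt6) and 11 had a pooled candidate. Of the 20 canonical genes without such a paralog, 8 had an optimal promoter summit (40%), close to the 41.7% of the 12. Rpt6 had optimal rank 1144, and Rpt6R had no promoter summit in any list. Rpn13 had optimal rank 1653, and Rpn13R likewise had none. Prosbeta2 had optimal rank 3432, while Prosbeta2R1 had none and Prosbeta2R2 had the weak candidate given above.

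The position of the summits was upstream of the start in 12 of the 13 genes. The median was 125 bp upstream, against 143 bp upstream for all protein-coding genes with an optimal promoter summit, of which 90% were upstream. Only the Rpt5 summit was downstream, 14 bp into its 5′ UTR. By annotation 8 summits were intergenic, 4 were in introns and 1 was in a 5′ UTR. The intronic ones were those at Rpn5 and Rpt6 given above, Prosalpha6 in Npc1a, and Rpn6 in its own intron upstream of a second start. Every peak interval was 416 bp wide.

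The peaks at genes on arm 2R, given here by interval and summit, were Prosbeta1 at chr2R:16014664-16015079 (summit 16014872), Prosalpha3 at chr2R:20994630-20995045 (summit 20994838), Prosalpha7 at chr2R:9847654-9848069 (summit 9847862), Rpn6 at chr2R:14752188-14752603 (summit 14752396) and Rpn13 at chr2R:13960283-13960698 (summit 13960491). Rpt5 had its peak at chr3R:23752682-23753097 (summit 23752890). All positions are dm6. The 13 genes had 13 distinct best peaks, so no peak was counted for more than 1 of them.

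**Figure D3:**
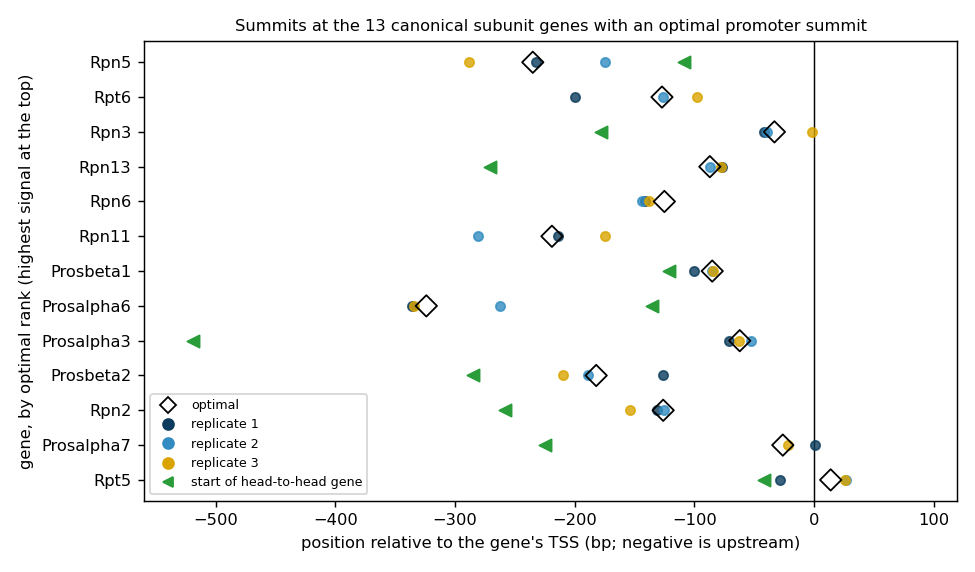
Position of the optimal summit (open diamonds) and the replicate summits (filled circles) relative to the TSS of each of the 13 canonical genes (bp, negative is upstream), with green arrowheads at the start of a gene in the opposite direction. Optimal summits lie from 324 bp upstream to 14 bp downstream, and 12 of 13 are upstream.

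Most of these peaks lay at divergent promoters and were in reach of a neighbour's start. At 11 of the 13 peaks the TSS of another protein-coding gene was also within 500 bp, and Rpt6 and Rpn11 were the exceptions. At 4 peaks the neighbour's start was the nearer: Hat1 at Rpn5, the RNA exosome gene Rrp42 at Prosbeta1, the sterol transport gene Npc1a at Prosalpha6, and the mitochondrial ribosome gene mRpL39 at Prosbeta2. The other neighbours were l(2)37Bb at Rpn3, CtsL1 at Rpn13, ave at Rpn6, dgt3 at Prosalpha3, Slbp at Rpn2, CG1671 at Prosalpha7 and RanBP3 at Rpt5. Summit position alone cannot tell which gene of such a pair a peak belongs to. When each summit was counted only for its nearest TSS, 10 of 32 canonical genes, 0 of 16 paralogs and 14.5% of all protein-coding genes had an optimal promoter summit. The core particle dropped to 2 of 14 in that count, while the lid and the base stayed at 4 each. These counts rest in part on weak peaks. Rpn5 stayed in only through its summit 28 bp from the start, at rank 4876 the last peak of the list. Rpn6 stayed in only through a tie, since its start and that of ave both lay 125 bp from the summit and ties were counted for both genes. The 2 core genes were Prosalpha3 and Prosalpha7, and Prosalpha7 was high-signal in no replicate.

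Head-to-head arrangement differed between the classes. A gene transcribed the opposite way from a start within 1000 bp upstream was present at 19 of 32 canonical genes (59.4%), 3 of 16 paralogs (18.75%) and 36.0% of all protein-coding genes. With such a neighbour, an optimal promoter summit was found at 10 of 19 canonical genes (52.6%), 0 of 3 paralogs and 34.1% of all protein-coding genes. Without it, the counts were 3 of 13 canonical genes (23.1%) and 0 of 13 paralogs, against 11.9% of all protein-coding genes. The canonical share was above that of all protein-coding genes in both strata. These shares rest on 19 and 13 genes and no interval was computed for them, so an excess within a stratum was not tested. The paralogs had 0 in both, with only 3 genes in the head-to-head stratum. The part of gene arrangement in the contrast between canonical genes and paralogs was not tested further. By subcomplex, the genes with an optimal summit were 5 of 10 head-to-head and 0 of 4 other core genes, 2 of 3 and 2 of 5 lid genes, and 3 of 6 and 1 of 4 base genes. The number of annotated starts, each of which can bring a summit into reach, ran in the same order: more than 1 TSS was annotated for 10 of 32 canonical genes, 2 of 16 paralogs and 3699 of 13945 protein-coding genes. With the 5′-most TSS alone, 12 canonical genes, 0 paralogs and 17.8% of all protein-coding genes had an optimal promoter summit.

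The contrast was also examined over the distance allowed, from 100 to 2000 bp. Within 100 bp of a TSS an optimal summit was found at 7 canonical genes (21.9%), 0 paralogs and 6.27% of all protein-coding genes. Within 150 bp it was found at 11 canonical genes, against 10.5% of all protein-coding genes, and within 200 bp at 12, against 13.7%. From 250 to 1500 bp the canonical count stayed at 13, while the share of all protein-coding genes grew with distance, being 15.6% at 250 bp and 22.9% at 1000 bp. At 2000 bp there were 15 canonical genes (46.9%), 0 paralogs and 28.0% of all protein-coding genes.

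**Figure D4:**
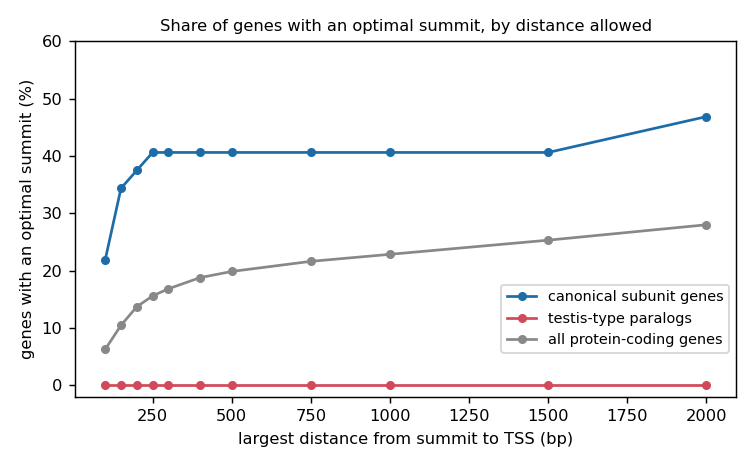
Share of genes with an optimal summit (%, vertical axis) against the largest distance allowed from summit to TSS (bp, horizontal axis). The canonical line is flat at 40.6% from 250 to 1500 bp, the testis-type line is at 0% throughout, and the line of all protein-coding genes is at 6.27% at 100 bp and 28.0% at 2000 bp.

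Promoter sequence was searched from 250 bp before to 50 bp after the 5′-most start, on both strands, for 10 motifs. The DNA replication-related element (DRE), TATCGATA, is the site of the factor Dref and is known from promoters of housekeeping and growth genes. It was present at 12 of 32 canonical promoters (37.5%), 0 of 16 testis-type promoters and 9.36% of all protein-coding promoters. Each of the 12 promoters held 1 DRE, upstream of the start in 10 and downstream in 2. Among the 13 canonical genes with an optimal summit 7 had a DRE (53.8%), and among the other 19 canonical genes 5 had it (26.3%). Over all protein-coding genes with an optimal promoter summit the share was 15.0%. Read the other way, an optimal summit was found at 7 of 12 canonical promoters with a DRE and 6 of 20 without. For all protein-coding promoters these shares were 31.8% with a DRE and 18.6% without. The searched window did not hold every optimal summit. At Rpn6 the summit lay near a second start, whose promoter was not searched, and at Prosalpha6 it lay 324 bp upstream. Rpn6 is counted here as having no DRE.

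The DREs did not sit under the summits in most cases. In the 7 genes with both, the distance was taken from the DRE centre to the strongest optimal summit of the gene. Its median was 126.5 bp, with the nearest at 29.5 bp (Prosalpha3) and the farthest at 311.5 bp (Prosalpha6). The weaker optimal summit of Prosalpha6, 122 bp from its start, was not used for this distance. Only 2 of the 7 were within 50 bp and 3 within 100 bp. The 30 bases holding the DRE, in capitals, are shown for promoters with an optimal summit (Rpt5, Rpn3, Prosalpha6, Prosbeta2) and without (Rpn7, Rpn9, Rpn12, Prosbeta6), because the same 8 letters occur in both. They are on the strand of the gene, in dm6, at chr3R:23752819-23752848 for Rpt5, chr2L:19051582-19051611 for Rpn3, chr2L:10221324-10221353 for Prosalpha6, chr3L:14999930-14999959 for Prosbeta2, chr3R:22462033-22462062 for Rpn7, chr3R:23733418-23733447 for Rpn9, chr3L:16582801-16582830 for Rpn12 and chr3L:16610444-16610473 for Prosbeta6.
Rpt5: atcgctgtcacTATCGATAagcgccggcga
Rpn3: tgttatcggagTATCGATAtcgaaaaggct
Prosalpha6: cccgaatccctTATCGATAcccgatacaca
Prosbeta2: ccatgaatataTATCGATAcaatatcgatt
Rpn7: gcggtataattTATCGATAattttggggtc
Rpn9: gcccggttaaaTATCGATAttctcgcggat
Rpn12: ttgttaaaataTATCGATAttaaagcacaa
Prosbeta6: gtatgtataccTATCGATAacgtttaagca
Prosbeta6 had this DRE and yet no promoter summit in any of the 5 lists.

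The shorter word CGATA, which the insulator protein BEAF-32 binds and which lies within every DRE, was present at 27 of 32 canonical promoters (84.4%), 8 of 16 testis-type promoters (50%) and 47.4% of all protein-coding promoters. GAGAG, the word of the GAGA factor, was rarer at canonical promoters, with 3 of 32 (9.38%), against 6 of 16 testis-type promoters (37.5%) and 29.7% of all. TATAAA matched 13 canonical and 5 testis-type promoters, or 40.6% and 31.25%, against 45.8% of all. The letters TGACNNNGC, bound by cnc with its Maf partner, were present at 5 canonical promoters (15.6%) and 1 testis-type promoter, against 8.63% of all. They were present at 1 of the 13 canonical promoters with an optimal summit.

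Among the longer core promoter motifs, motif 1, bound by M1BP, matched 4 canonical and 0 testis-type promoters, against 4.50% of all, and none of the 4 had an optimal summit. Core promoter motif 6 matched 2 promoters in each class, against 2.23% of all, and motif 7 matched 5 canonical and 1 testis-type promoter, against 9.29% of all. CACGTG and the CTCF core letters AGNNGGCGC matched none of the 48 promoters, against 4.20% and 2.82% of all. Within 50 bp of the optimal summit, a DRE lay at 2 of the 13 canonical peaks (15.4%), against 3.57% of the 2156 optimal promoter peaks. CGATA lay at 5 of 13 (38.5%), against 21.1%, and TATAAA at 3 of 13 (23.1%), against 23.4%. The median A and T share of the searched promoters was 66.5% for canonical genes, 67.3% for paralogs and 62.0% for all protein-coding genes.

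**Figure D5:**
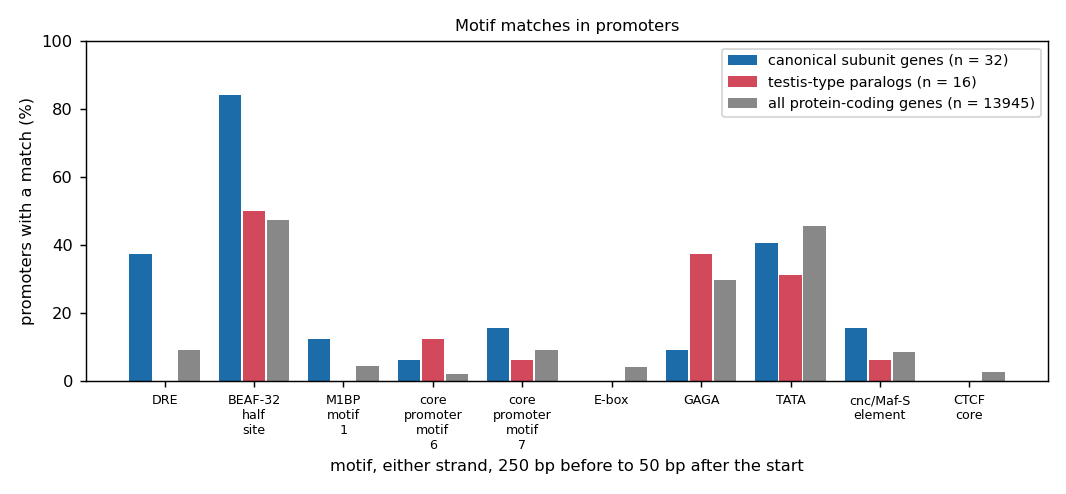
Share of promoters (%, vertical axis) with a match to each of 10 motifs on either strand, for canonical subunit genes, testis-type paralogs and all protein-coding genes. The DRE is at 37.5%, 0% and 9.36%, and GAGAG at 9.38%, 37.5% and 29.7% in these groups.

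Other genes of the ubiquitin and proteasome pathway were scored from a list of 54 symbols, of which 49 matched a protein-coding gene. An optimal promoter summit was found at 20 of the 49 (40.8%, interval 28.2% to 54.8%), against 19.9% of all protein-coding genes, and a pooled candidate at 36, against 44.9% of all. High-signal summits were at 21, 21 and 16 of them in replicates 1, 2 and 3, against 20.1%, 20.0% and 18.5% of all protein-coding genes. Among proteasome assembly and regulation genes, Pomp, the maturation factor of the core particle, had an optimal signal of 294.9. Genes with an optimal promoter summit also included PI31, a proteasome regulator, its partner ntc, and Uch-L5, the deubiquitinase that docks on Rpn13. The transcription factor cnc, which raises proteasome gene expression under stress, had a signal of 222.9, and Keap1, its inhibitor, also had an optimal promoter summit.

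The highest signals of the list were at Uba2 and Uba3. Uba2, of the SUMO-activating enzyme, had an optimal signal of 396.2, and Uba3, of the NEDD8-activating enzyme, had 343.3. The ubiquitin-conjugating enzyme gene ben had 292.4, the polyubiquitin gene Ubi-p63E had 212.3, the ubiquitin ligase gene Ufd4 had 199.0, and CSN5, of the COP9 signalosome, had 182.0. Uba1, of the ubiquitin-activating enzyme, had an optimal summit at the lower rank of 4102. The remaining genes with an optimal promoter summit were Ubc6, RpS27A, vih, slmb, eff, Cul1 and Ube3a. The lid subunit gene Sem1 and the core activator gene REG had none.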

How the data were processed

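TF ChIP-seq peaks of 3 replicates of 1 group were used. The signal column, per the deposited README files, belongs to lists that the authors made from each replicate's alignment and a control, from all 3 alignments (pooled), or by the irreproducible discovery rate (optimal). Summits came from the deposited offset column, an other unit in bp. The control was not used; the sources used here do not give aligner, peak caller or rate limit, and depth is unknown. The dm3 lists were left out.

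Genes came from Ensembl release 115 (BDGP 6.54), and sequence from RefSeq's genome of the same assembly; 99.8% of 30593 annotated start codons read ATG, and 0 peaks passed an arm's end. Summits were counted within 500 bp of a TSS. Every member with an optimal promoter summit is named with rank and signal, the others by class; pathway genes with such a summit are named, and the 8 of highest signal have values. Uba1's rank was added after its value was seen. Classes and lists were chosen with earlier results of these data known. The head-to-head split, distance series, word uniqueness, comparison of paralogs with their canonical copies, DRE distances, DRE by presence of a summit and CTCF letters were chosen after seeing the data. Lower-ranked or missing summits cannot be separated from low depth. No test across genes was run. Scoring was tested on simulated data. Tools were pandas 2.3.3 and NumPy 2.4.6 under Python 3.11.15, with matplotlib 3.10.9 and SciPy 1.17.1.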

Additional observations from a re-analysis of the deposited data

How the results depend on the processing

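Of the 101 alternative values computed, 88 were called the same as the value reported and 13 moved. A count was called the same within a ratio of 1.5 either way, and the difference between the classes within its SD over replicates. The 88 include paralog counts of 0 that could not rise. The alternatives for promoter uniqueness and for the difference between the classes were chosen after seeing the data. With only the 2438 optimal peaks of highest signal, an optimal promoter summit was found at 6 canonical genes (against 11.4% of all protein-coding genes), 0 core genes, 2 base genes and 8 pathway genes, while the lid count was 4. Fewer peaks were available there by construction. With a summit counted only for its nearest TSS, the core had 2 genes, the pooled count of paralogs was 1, the canonical high-signal mean was 7.67 genes, and the mean difference between canonical genes and paralogs was 24.0 percentage points. The pooled count of paralogs was 1 at 250 bp and 0 among pooled candidates with signal above the list's median. With all candidates the replicate means were 25 canonical genes and 2.67 paralogs, and the difference was 61.5 points. The optimal count of paralogs was 0 under every alternative tried, but only the 1000 bp reach and the peak midpoint could have raised it. The other alternatives only removed peaks, starts or genes from a count that was already 0.

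Each replicate was left out in turn by keeping only optimal peaks that overlapped high-signal peaks of both others. The optimal list itself was made from all 3 replicates, so the left-out replicate still shaped it. Counts could only stay or fall. The filter gave 11 canonical, 0 testis-type, 4 core, 4 lid and 3 base genes with an optimal summit each time. It gave 15 to 18 pathway genes. The share of all protein-coding genes was 15.99% to 16.8%. The canonical high-signal mean ranged from 12 to 13, and the difference between the classes from 37.5 to 40.6 points. The paralog mean had to be 0 each time, since every replicate had 0. No paired analysis was possible because there is 1 group. Depth is unknown, so a missing summit cannot be told apart from one below detection.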

Other observations

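The proteasome genes without an optimal promoter summit differed in how far the nearest optimal summit was. For the 19 canonical genes the distance from the closest TSS ranged from 1556 bp (Rpn12) to 36449 bp (Rpn8), with a median of 4068 bp, and 10 of the 19 (52.6%) had one within 5000 bp. For the 16 testis-type paralogs it ranged from 3060 bp (Rpt3R) to 81403 bp (Prosbeta4R1), with a median of 26164.5 bp, and Rpt3R and Prosbeta2R2 were the 2 (12.5%) within 5000 bp. Over all 11175 protein-coding genes without an optimal promoter summit the median was 10197 bp and 28.3% had one within 5000 bp. The median was thus lower for canonical genes than for all protein-coding genes, and higher for paralogs. Gene density around the 2 classes was not tested.

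Inside the bodies of the 48 genes, optimal summits lay only in the 5′ UTR of Rpt5 and in an intron of Rpn6, and both are the promoter summits already described. The 5 canonical genes that carry a DRE without an optimal promoter summit had their nearest optimal summits at 1556 bp (Rpn12), 1941 bp (Prosbeta6), 6070 bp (Rpn9), 7243 bp (Rpn7) and 8228 bp (Prosalpha5).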
